A study of Mus musculus with 18 samples.

Results

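The genes described here encode the matrix metalloproteinases (MMPs), the tissue inhibitors of metalloproteinases (TIMPs), the ADAMTS proteases and the ADAMTS-like proteins, which together cut, or control the cutting of, the extracellular matrix. All symbols of these families with at least 30 counts summed over the 18 libraries were taken: 42 of 51 family symbols, among 25230 symbols in the table. The sparsest genes kept were Mmp24, with 59 counts in all, and Mmp27, with 73. Of the 9 genes left out, Mmp10 and Adamts18 had 5 counts each, Adamts13 and Mmp21 had 4, Adamts16 had 2, and Mmp1a, Mmp1b, Mmp7 and Mmp20 had 0.

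Bulk polyadenylated RNA was sequenced from hearts of male C57BL/6J mice, all with a myocardial infarct made by tying the left anterior descending coronary artery, 3 days after that operation. Each of 3 regions, the atria, the infarcted left ventricle ("infarct") and the left ventricle outside the infarct ("remote"), was taken from mice given liraglutide, an agonist of the glucagon-like peptide 1 receptor, or phosphate-buffered saline (PBS), with 3 biological replicates in each of the 6 groups. No genotype beyond the strain is named, the labels state neither the age of the mice nor the dose and schedule of liraglutide, and sham-operated hearts were not analysed here, so every group carries the infarct. Whether the 3 regions came from the same hearts is not stated, and the p-values measure the spread between these libraries.

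MMPs are secreted or membrane-anchored zinc proteases that are made as inactive precursors, and TIMPs bind their active sites. Collagenases cut fibrillar collagen, gelatinases cut denatured and basement membrane collagen, and membrane-type MMPs act at the cell surface, where Mmp14 activates the precursor of Mmp2. The ADAMTS proteases include enzymes that cut the proteoglycans versican and aggrecan and enzymes that trim procollagen, while ADAMTS-like proteins share their ancillary domains but have no protease domain. After an infarct these enzymes are known for the breakdown and rebuilding of the injured ventricular wall.

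Library totals ran from 4280459 counts (infarct, PBS replicate 3) to 21853482 (atria, liraglutide replicate 3). Levels of single libraries are given as CPM, counts scaled to the library total, and a count of 3, the limit that a count of 0 allows, equals 0.137 to 0.701 CPM, counting error only. Atrial cardiomyocyte markers summed to 37892 to 53428 CPM in the atrial libraries and to 146 to 539 CPM in the ventricular ones, as the labels have it. Ventricular cardiomyocyte markers summed to 12844 to 14962 CPM in infarct and 16003 to 18623 CPM in remote libraries, with all 5 markers detected in both. In the atria they summed to 108 to 163 CPM with PBS but to 671, 151 and 1680.0 CPM with liraglutide, where replicate 3 was highest and replicate 1 also lay above every PBS atrium. Replicate 2 of the PBS atria stood apart in adipocyte markers, at 425 CPM against 18.7 to 28.4 CPM in the liraglutide atria. Many atrial results are also given without the pair of libraries that stood apart most, PBS replicate 2 and liraglutide replicate 3, while liraglutide replicate 1 was kept. Sums and shares of families are given with all libraries only. In bulk tissue, fewer cells of a type and less RNA per cell cannot be told apart.

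Differences were tested with edgeR's quasi-likelihood test, each comparison on its own 6 libraries, with p-values adjusted by Benjamini-Hochberg over all tested genes and a threshold of 0.05. In PBS hearts 21 of the 36 tested members were higher in infarct than in remote and 3 were lower, where 25.7% of all 12831 tested genes were higher and 21.7% lower. In liraglutide hearts 22 of 36 were higher and 3 lower, against 27.3% and 22.4% of all genes. The median log2 fold change of the tested members was 0.78 and 0.83 in PBS and liraglutide hearts, and that of all tested genes -0.02 in each. The same 22 members were called in the same direction with both treatments, 19 higher and Adamts15, Adamts7 and Adamtsl5 lower. The share of all genes called alike with both treatments was not computed, so this count is a description only.

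Compared with the remote ventricle, the atria had 16 of 35 tested members higher and 5 lower with PBS, where 26.3% and 25.6% of all genes were called. With liraglutide 14 of 35 were higher and 5 lower, against 24.6% and 22.9%. Compared with the infarct, the atria had 10 of 36 members higher and 15 lower with PBS (all genes 26.2% and 26.1%), and 7 of 37 higher and 14 lower with liraglutide (all genes 22.1% and 21.2%). Without the 2 atrial libraries that stood apart, all members called in atria against remote were still called in the same direction with the same treatment, and of those called in atria against infarct Mmp17 was not (edgeR adjusted p = 0.129 with PBS and 0.0605 with liraglutide). Comparisons that share a group share its libraries. By group means in PBS hearts, 22 members were highest in infarct, 17 in atria and 3, Adamts20, Adamts7 and Adamtsl5, in remote. The same count over all genes was not made.

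**Figure D1:**
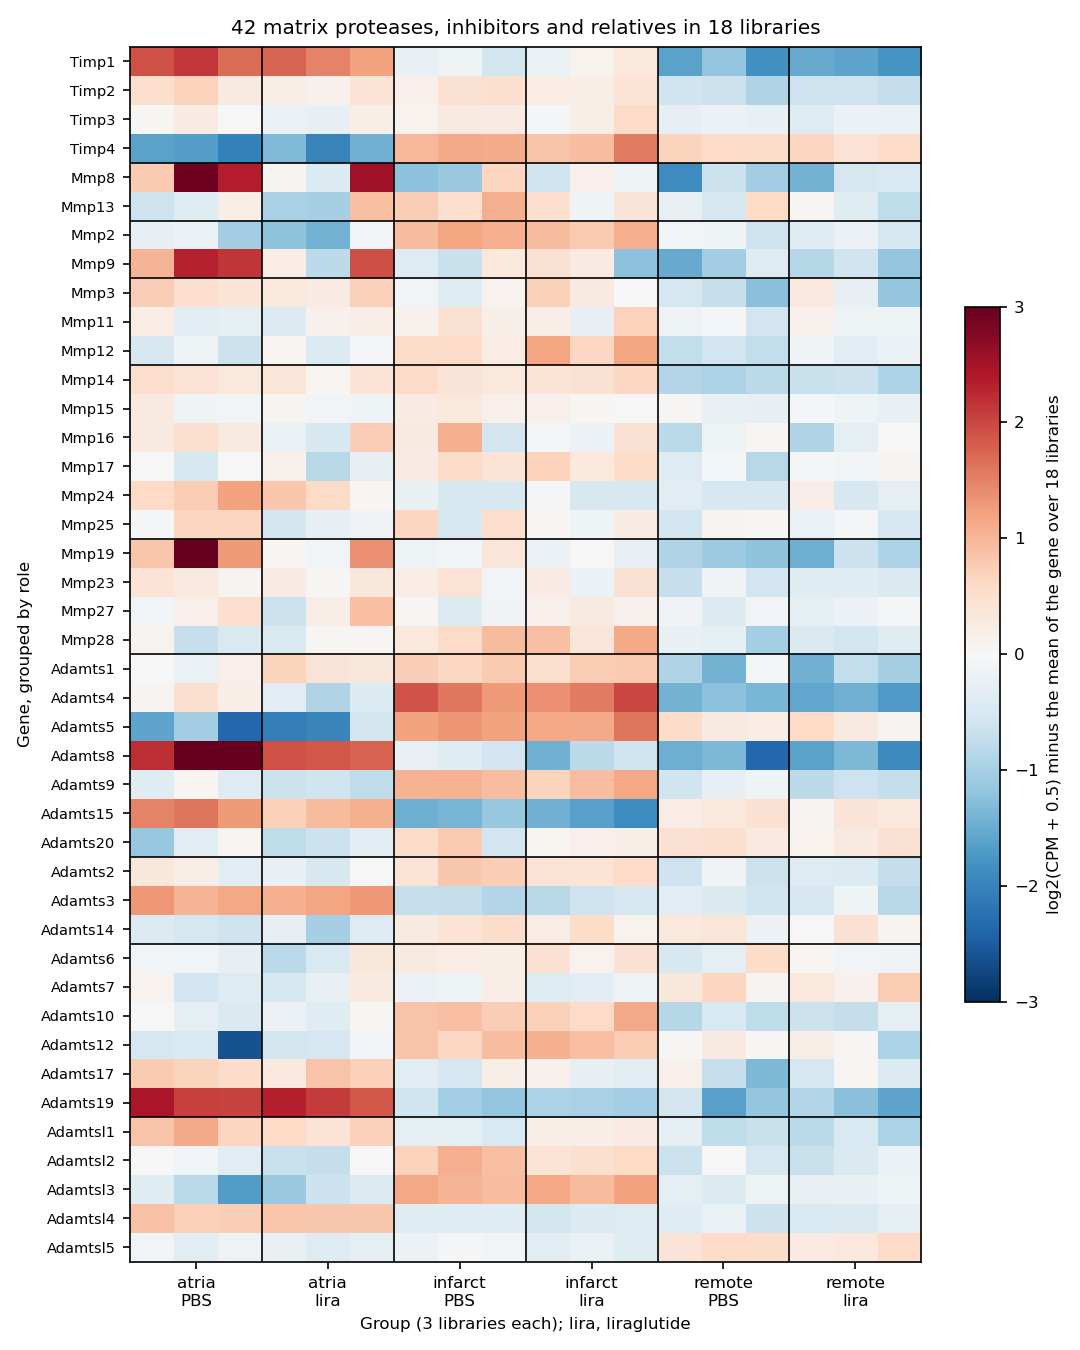
Levels of the 42 genes (rows, grouped by role) in the 18 libraries (columns, 3 per group, replicates 1 to 3 from left to right), as log2(CPM + 0.5) minus the mean of the gene over the 18 libraries, with the colour scale stopping at 3 and -3. Timp1, Adamts8 and Adamts19 are red in the 6 atrial libraries, Adamts4, Adamts5 and Adamts9 in the 6 infarct libraries, and Adamts15 is blue in infarct; 2 PBS atria and 1 liraglutide atrium carry the highest Mmp8 and Mmp9.

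All 4 inhibitor genes were higher in infarct than in remote tissue, with both treatments, but in the atria Timp1 was far above the ventricle and Timp4 far below it. Timp1, the inducible secreted inhibitor (mm10, chrX:20870166-20874735), had the widest range of the 4. Its CPM was 110.1, 126 and 93.2 in the PBS atria and 97.4, 82.4 and 67.1 in the liraglutide atria. In infarct it was 24.8, 26.1 and 19.6 with PBS and 24.98, 30.9 and 36.2 with liraglutide, and in remote 9.17, 12.5 and 7.79 and 9.78, 9.36 and 8.17. No library of one region overlapped with a library of another, and the order was atria, infarct, remote with both treatments. Infarct exceeded remote by a log2 fold change of 1.23 ± 0.15 (SE) with PBS and 1.72 ± 0.14 with liraglutide (edgeR adjusted p = 1.15e-05 and 1.28e-07). Atria exceeded remote by 3.36 ± 0.15 and 3.19 ± 0.20 on the log2 scale, 10.3-fold and 9.11-fold (edgeR adjusted p = 3.96e-08 and 3.94e-06). Without the 2 atrial libraries that stood apart this was 3.27 with PBS and 3.38 with liraglutide. The liraglutide effect in infarct minus that in remote was 0.50 ± 0.28 on the log2 scale and did not pass (edgeR adjusted p = 1).

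Timp4, the inhibitor best known from heart muscle, was lowest in the atria. It measured 18.5, 17.7 and 13.6 CPM in the PBS atria, 115, 125 and 125 CPM in infarct and 91.7, 85.7 and 83.6 CPM in remote. With liraglutide the values were 22.3, 13.9 and 20.5 CPM, 104, 109 and 169 CPM and 90.0, 77.6 and 85.1 CPM. Every atrial library lay below every ventricular one, and PBS atria were 5.66-fold below remote (log2 -2.501 ± 0.11, edgeR adjusted p = 4.05e-08). Leaving out the same 2 atrial libraries gave -2.52 with PBS and -2.14 with liraglutide. Infarct was above remote by 0.43 ± 0.075 with PBS and 0.57 ± 0.17 with liraglutide (edgeR adjusted p = 0.000272 and 0.0211), and the second of these calls was lost without remote liraglutide replicate 2 (adjusted p = 0.0639) or 3 (0.0522), or without the filter on low counts (0.0647). The exons of Timp4 share 90 bases with Syn2 on the opposite strand, whose log2 fold change between infarct and remote was -0.49 ± 0.14 with PBS.

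Timp2, which bridges Mmp14 and the precursor of Mmp2, stood at 204, 230.1 and 170.4 CPM in the PBS atria, 158, 194 and 199 CPM in infarct and 93.3, 91.1 and 75.4 CPM in remote. The liraglutide libraries gave 163, 156 and 189 CPM in atria, 166, 162 and 190.3 CPM in infarct and 91.7, 91.7 and 86.5 CPM in remote. Atria and infarct overlapped and both lay above remote, by log2 fold changes of 1.09 and 1.02 with PBS (edgeR adjusted p = 1.04e-05 and 3.99e-07), the atrial value being 1.01 without atria PBS replicate 2. Timp3, the matrix-bound inhibitor that also blocks ADAMTS proteases, varied least of the 4. Its CPM was 922, 1058 and 898 in the PBS atria, 970.3, 1087 and 1055 in infarct and 759, 799 and 767 in remote. In the liraglutide libraries it was 782, 761 and 1030.4, 864, 1007 and 1338 and 684, 798 and 790.5. Infarct was above remote by log2 0.36 ± 0.073 with PBS and 0.47 ± 0.14 with liraglutide (edgeR adjusted p = 0.000837 and 0.0121), while atria against remote did not pass (0.18 and 0.17). Syn3, on the opposite strand, shares 1733 exon bases with Timp3 and holds 268 counts in all libraries together, against 198412 for Timp3.

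Divided by exon length, the inhibitor transcripts summed to 296 ± 36.6 CPM per kb in PBS atria, 222 ± 13.5 in infarct and 143 ± 6.82 in remote (mean ± SD, n = 3). Timp3 made up 66.5% of that sum in remote, 57.5% in infarct and 39.9% in atria. The share of Timp1 was 7.68%, 11.97% and 41.7% in the same order, and that of Timp4 was 10.3%, 9.32% and 0.951%. In liraglutide atria Timp1 held 38.0% and Timp3 43.0% on average, with Timp1 at 29.7% and Timp3 at 49.8% in replicate 3, and in the ventricle Timp3 held the largest share with both treatments. The shares are of transcripts and say nothing of the proteins.

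**Figure D2:**
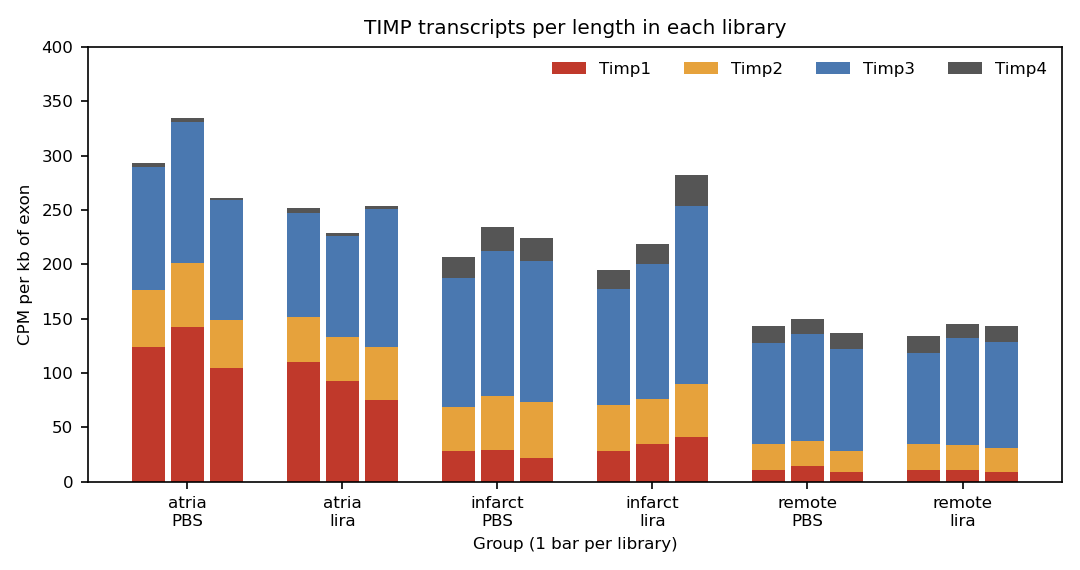
CPM per kb of exon (vertical axis) of the 4 TIMP genes stacked for each of the 18 libraries, 3 bars per group, with liraglutide written as lira. Timp1 fills 40.2% to 42.6% of each PBS atrial bar and 6.43% to 9.39% of each PBS remote bar, and Timp4 is visible in the ventricular bars.

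The collagenases and Mmp9 did not pass the unpaired test between infarct and remote, but PBS atria held far more Mmp8 and Mmp9 than remote. Mmp8, the collagenase stored in neutrophil granules, measured 12.3, 55.9 and 37.5 CPM in PBS atria and 7.36, 5.09 and 41.9 CPM in liraglutide atria. In PBS hearts infarct had 2.69, 2.97 and 11.2 CPM and remote 1.53, 4.23 and 3.12 CPM. PBS atria were above remote by log2 3.52 ± 0.77 (edgeR adjusted p = 0.0173), a call lost without atria PBS replicate 3, remote PBS replicate 1 or remote PBS replicate 3 (adjusted p = 0.0519, 0.056 and 0.0694). Without atria PBS replicate 2 it was 3.00 (adjusted p = 0.0255). Liraglutide atria did not pass against remote (2.13 ± 0.85), and 1 of the 3 libraries held 41.9 CPM. The infarct against remote difference was 0.70 ± 0.72 with PBS and 0.62 ± 0.29 with liraglutide, neither past the threshold.

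Mmp9, gelatinase B, followed the same libraries. It had 7.09, 18.2 and 16.1 CPM in PBS atria, 2.39, 1.86 and 4.21 CPM in infarct and 0.823, 1.32 and 2.40 CPM in remote. The liraglutide libraries had 3.90, 1.67 and 13.8 CPM in atria, 4.70, 3.94 and 1.10 CPM in infarct and 1.59, 1.97 and 1.17 CPM in remote. PBS atria exceeded remote 8.99-fold and infarct 5.21-fold (edgeR adjusted p = 0.00144 and 0.00193), and stayed above remote without atria PBS replicate 2 (log2 2.90, adjusted p = 0.00259). Infarct and remote overlapped with PBS at log2 0.83 ± 0.42 (edgeR adjusted p = 0.124), while edgeR with the replicate number as a block gave an adjusted p of 0.02. The contrast of the liraglutide effects in atria and remote was -1.17 ± 1.01 for Mmp9 and -1.37 ± 1.19 for Mmp8, neither past the threshold.

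Neutrophil markers moved with these genes. Their 11 symbols, all detected in the atria, summed to 222, 783 and 624 CPM in PBS atria and 138, 84.1 and 401 CPM in liraglutide atria. In infarct they summed to 40.8, 54.3 and 153 CPM with PBS and 95.6, 117 and 78.8 CPM with liraglutide, and in remote to 24.2 to 47.1 CPM, with Camp and Elane at 0 in the PBS infarct and remote libraries. The 3 atrial libraries with the most Mmp8 were the 3 with the highest marker sums. Of 7 tested markers, 7 were higher in PBS atria than in remote and 6 in liraglutide atria, beside 26.3% and 24.6% of all genes. In infarct 1 of 7 was higher than in remote with PBS and 7 of 7 with liraglutide, beside 25.7% and 27.3% of all genes. The medians of the 7 were 0.96 and 1.48 on the log2 scale. Between liraglutide and PBS in infarct 0 of 7 passed, and 0 of 7 in the contrast of the liraglutide effects in infarct and remote. The part of neutrophil markers in the Mmp8 and Mmp9 results was not tested.

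Mmp19, a soluble MMP, also peaked in an atrial library, with 12.8, 61.9 and 17.6 CPM in PBS atria and 7.36, 6.62 and 18.9 CPM in liraglutide atria. Infarct had 6.28, 6.59 and 9.11 CPM with PBS and 6.08, 6.98 and 5.97 CPM with liraglutide, and remote 3.53, 3.01 and 2.76 and 2.20, 4.27 and 3.42 CPM. PBS atria were above remote by log2 3.18 ± 0.79 (edgeR adjusted p = 0.0265), and by 2.14 without replicate 2, the library with 61.9 CPM and with adipocyte markers (adjusted p = 1.03e-05). The call was lost without any 1 of the 3 remote PBS libraries (adjusted p = 0.084, 0.0926 and 0.0979). Infarct was above remote by 1.11 ± 0.21 and 0.91 ± 0.23 (edgeR adjusted p = 0.000527 and 0.00355), calls lost when all 18 libraries shared a fit (adjusted p = 0.172 and 0.237). Tmem198b, on the opposite strand, shares 789 exon bases with Mmp19 and was itself higher in PBS atria than in remote, by 0.51 ± 0.19 (edgeR adjusted p = 0.0396).

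**Figure D3:**
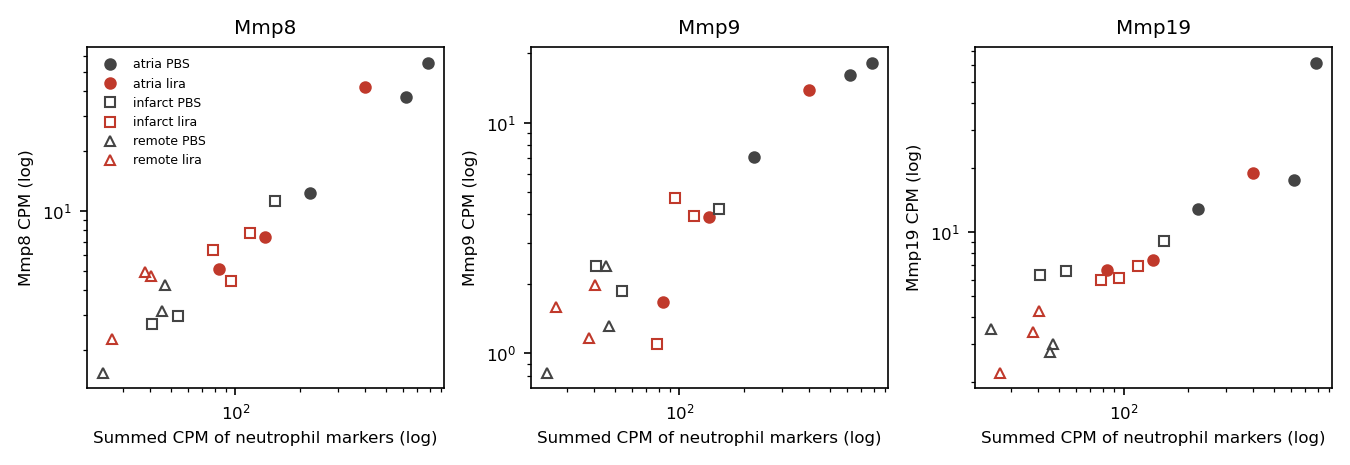
CPM of Mmp8, Mmp9 and Mmp19 (vertical, log axis) against the summed CPM of 11 neutrophil markers (horizontal, log axis), 1 point per library, filled circles for atria, squares for infarct and triangles for remote, grey for PBS and red for liraglutide. The 3 libraries with marker sums of 401 to 783 CPM are atrial and hold 13.8 to 18.2 CPM of Mmp9.

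The gelatinase and surface protease that act together, Mmp2 and Mmp14, were both higher in infarct. Mmp2, gelatinase A, had 108, 127 and 120.1 CPM in PBS infarct, 53.0, 50.9 and 36.4 CPM in remote and 46.9, 49.7 and 26.7 CPM in atria. With liraglutide it had 108, 96.9 and 119.9 CPM in infarct, 43.3, 49.3 and 39.5 CPM in remote and 23.9, 20.6 and 52.4 CPM in atria. Each infarct library exceeded each library of the other regions, and infarct was 2.42-fold and 2.41-fold above remote (log2 1.27 ± 0.10 and 1.27 ± 0.093, edgeR adjusted p = 3.76e-07 and 5.73e-08). Atria and remote overlapped, with liraglutide only through atria replicate 3 (52.4 CPM), the library with the most ventricular markers. Liraglutide atria replicates 1 and 2, at 23.9 and 20.6 CPM, lay below every remote library. Mmp14, which is membrane-type 1 MMP, had 72.4, 64.0 and 60.7 CPM in PBS infarct, 26.4, 24.8 and 27.7 CPM in remote and 69.9, 66.2 and 60.2 CPM in atria. The liraglutide values were 64.8, 66.7 and 74.8, 30.3, 31.1 and 25.4 and 62.2, 50.4 and 64.9 CPM in that order. Infarct and atria overlapped, and both lay above remote, by 1.28 ± 0.10 and 1.19 ± 0.10 on the log2 scale with PBS (edgeR adjusted p = 1.60e-07 and 4.45e-06), the atrial value being 1.21 without atria PBS replicate 2. Timp2 shared that arrangement, while Mmp2 was high in infarct and not in atria.

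Among the other membrane-type MMPs Mmp15 had the highest CPM, at 81.5 to 120.3 over the 18 libraries, and rose in PBS infarct by 0.33 ± 0.087 (edgeR adjusted p = 0.00587) but not past the threshold with liraglutide (0.18 ± 0.081, adjusted p = 0.0757). Mmp17, anchored by a lipid, measured 4.09, 5.29 and 4.67 CPM in PBS infarct and 2.47, 3.20 and 1.68 CPM in remote, with 5.71, 4.29 and 5.11 and 3.19, 3.12 and 3.59 CPM for liraglutide and 1.67 to 3.75 CPM in atria. Infarct was higher by 0.87 and 0.59 (edgeR adjusted p = 0.00952 and 0.0195). The PBS call was lost without infarct PBS replicate 2 (adjusted p = 0.0615), and the liraglutide call without infarct replicate 1 (0.0934), remote replicate 1 (0.0606) or remote replicate 2 (0.0672) and with DESeq2 (0.0911) or all 18 libraries (0.0809). Mmp16, Mmp24 and Mmp25 stayed at or below 1.76, 1.12 and 0.798 CPM, and Mmp24 and Mmp25 passed the filter on low counts in no comparison.

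Mmp28, epilysin, was also higher in infarct. PBS infarct had 4.98, 6.03 and 7.94 CPM, remote 3.29, 3.104 and 1.68 CPM and atria 4.25, 2.23 and 2.71 CPM, and liraglutide infarct 7.74, 5.19 and 9.13, remote 2.73, 2.48 and 2.92 and atria 2.74, 4.01 and 3.98 CPM. The infarct against remote difference was 1.07 ± 0.25 with PBS and 1.40 ± 0.22 with liraglutide (edgeR adjusted p = 0.00255 and 7.82e-05). Mmp23 was higher in infarct and in atria than in remote, by 0.71 and 0.66 with PBS (edgeR adjusted p = 0.0101 and 0.0176), the infarct call being lost without infarct PBS replicate 2 (adjusted p = 0.0759) or remote PBS replicate 1 (0.064), and the atrial call without remote PBS replicate 1 (0.0907). Mmp27 had 0 to 0.961 CPM over the 18 libraries and was tested in no comparison.

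Of the stromelysins and the elastase, Mmp3, stromelysin-1, measured 27.2, 23.1 and 21.6 CPM in PBS atria, 15.1, 12.5 and 17.5 CPM in infarct and 10.99, 9.78 and 6.47 CPM in remote. These PBS groups did not overlap, and atria and infarct were above remote by 1.26 ± 0.17 and 0.61 ± 0.18 (edgeR adjusted p = 0.000106 and 0.0101; the second was 0.112 in a fit of all 18 libraries). With liraglutide the values were 20.3, 19.4 and 26.7 CPM in atria, 26.9, 19.7 and 16.2 CPM in infarct and 20.02, 13.5 and 7.005 CPM in remote, which overlapped, and neither difference from remote passed (0.70 and 0.62). Mmp12, macrophage metalloelastase, had 1.84, 1.07 and 1.83 CPM in liraglutide infarct and 0.455, 0.318 and 0.417 CPM in remote (log2 1.94 ± 0.40, edgeR adjusted p = 0.00088). With PBS it had 0.997, 1.02 and 0.701 and 0.118, 0.188 and 0.120 CPM and was below the count filter. Mmp13, collagenase-3, reached 1.11 to 1.87 CPM in PBS infarct and 0.282 to 1.20 CPM in remote (1.14 ± 0.50, edgeR adjusted p = 0.0691), and edgeR with the replicate block gave an adjusted p of 0.0187. PBS atria were below PBS infarct for Mmp13 (log2 -1.78 ± 0.49, edgeR adjusted p = 0.00889), a call lost in a fit of all 18 libraries (adjusted p = 0.0755) and kept without atria PBS replicate 2 (-1.64, adjusted p = 0.0336). Mmp11 passed in none of the 6 region comparisons, at 2.76 to 7.31 CPM.

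Mmp13, Mmp12, Mmp3, Mmp8 and Mmp27 lie in that order in the same orientation on mouse chromosome 9 (mm10), 2.9 to 102.5 kb apart, with Mmp10 lying between Mmp3 and Mmp8 and with Mmp1b, which had 0 counts, overlapping the end of Mmp12 on the opposite strand. The promoters of 3 of these neighbours and of Timp1 are printed. By group means in PBS hearts Mmp3, Mmp8 and Timp1 were highest in atria and Mmp13 in infarct. Timp1 and Mmp3 had the same order there, atria, infarct, remote, without overlap. Mmp13 did not pass the threshold between infarct and remote. Each is the 250 bases before the RefSeq start (GRCm38.p6, plus strand, chr9:7445572-7445821 for Mmp3, chr9:7558179-7558428 for Mmp8, chr9:7272264-7272513 for Mmp13 and chrX:20869916-20870165 for Timp1), with matches to 3 motifs in capitals: the AP-1 motif TGANTCA, the TATA box TATAAA, and the GC box GGGCGG or its reverse complement CCGCCC, searched on both strands.
Mmp3: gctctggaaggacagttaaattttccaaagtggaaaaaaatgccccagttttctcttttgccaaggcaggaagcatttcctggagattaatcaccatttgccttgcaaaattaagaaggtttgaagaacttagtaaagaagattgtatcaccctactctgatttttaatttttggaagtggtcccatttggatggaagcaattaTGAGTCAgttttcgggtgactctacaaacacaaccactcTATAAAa
Mmp8: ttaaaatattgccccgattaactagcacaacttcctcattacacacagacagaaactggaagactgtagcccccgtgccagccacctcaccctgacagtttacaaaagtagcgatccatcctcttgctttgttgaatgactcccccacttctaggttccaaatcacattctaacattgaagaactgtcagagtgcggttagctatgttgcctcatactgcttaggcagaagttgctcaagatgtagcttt
Mmp13: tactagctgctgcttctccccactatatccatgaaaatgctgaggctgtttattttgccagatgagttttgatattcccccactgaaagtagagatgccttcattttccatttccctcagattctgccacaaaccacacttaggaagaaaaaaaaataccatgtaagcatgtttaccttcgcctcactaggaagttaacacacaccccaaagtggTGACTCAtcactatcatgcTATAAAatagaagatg
Timp1: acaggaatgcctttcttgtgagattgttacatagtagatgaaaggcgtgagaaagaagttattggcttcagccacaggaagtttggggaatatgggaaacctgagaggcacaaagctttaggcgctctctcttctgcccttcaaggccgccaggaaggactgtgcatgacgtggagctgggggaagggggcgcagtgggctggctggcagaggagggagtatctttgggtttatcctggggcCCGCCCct
In Mmp3 the AP-1 match lies 46 to 40 bases and the TATA match 7 to 2 bases before the start, and in Mmp13 35 to 29 and 16 to 11 bases before it. The Mmp8 window holds none of the 3 motifs, and the Timp1 window 1 GC box, 8 to 3 bases before the start. Promoter windows were found for 28 of the 42 genes. The AP-1 motif was in windows of 3 of these, Mmp3, Mmp12 and Mmp13, and in 6.75% of all 32851 RefSeq windows of that length. TATAAA was in 4, Mmp3, Mmp13, Adamts1 and Adamtsl2 (12.4% of all windows), and the GC box in 19 (32.7%). A match describes letters, not a bound site.

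The ADAMTS genes that cut proteoglycans included the largest differences between regions. Adamts4, aggrecanase-1, measured 244, 195 and 158 CPM in PBS infarct, 24.0, 27.4 and 24.9 CPM in remote and 68.5, 90.4 and 73.8 CPM in atria. With liraglutide it measured 168, 192 and 265 CPM in infarct, 21.6, 23.5 and 19.8 CPM in remote and 51.8, 34.4 and 48.9 CPM in atria. The 3 regions did not overlap with either treatment, and infarct exceeded remote 7.62-fold and 9.43-fold (log2 2.93 ± 0.17 and 3.24 ± 0.16, edgeR adjusted p = 3.62e-06 and 7.82e-08). Atria differed from remote by 1.48 and 1.05 and from infarct by -1.40 ± 0.16 and -2.15 ± 0.20 (edgeR adjusted p = 1.57e-06, 0.00042, 6.46e-05 and 4.36e-05). Without the 2 atrial libraries that stood apart these values were 1.38, 1.07, -1.50 and -2.13.

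Adamts15 was the member with the largest drop in infarct. Its CPM was 6.98, 7.33 and 8.88 in PBS infarct, 23.7, 25.2 and 27.8 in remote and 57.0, 62.5 and 49.8 in atria. In the liraglutide libraries it was 7.10, 6.17 and 5.11 in infarct, 21.4, 26.6 and 25.2 in remote and 33.5, 39.5 and 42.8 in atria. All infarct values lay below all remote values and these below all atrial values. Infarct was 3.51-fold and 3.99-fold below remote (log2 -1.81 ± 0.14 and -1.998 ± 0.15, edgeR adjusted p = 1.02e-07 and 5.60e-08). Atria were above remote by 1.02 ± 0.11 and 0.66 ± 0.12 (edgeR adjusted p = 2.51e-05 and 0.00159), and without the 2 atrial libraries that stood apart by 0.97 with PBS and 0.66 with liraglutide. Adamts15 lies at chr9:30899155-30922452 on the minus strand, and Adamts8 at chr9:30942562-30963838 on the plus strand, 20.1 kb away with no coding gene between them (mm10).

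Adamts8, its neighbour, was an atrial transcript. PBS atria had 42.8, 87.1 and 77.1 CPM, infarct 7.47, 6.78 and 5.84 CPM and remote 2.88, 3.20 and 1.32 CPM. Liraglutide atria had 34.4, 33.3 and 31.5 CPM, infarct 2.95, 4.92 and 5.72 CPM and remote 2.58, 3.18 and 2.001 CPM. Atria exceeded remote 24.6-fold with PBS and 12.6-fold with liraglutide (log2 4.62 ± 0.38 and 3.66 ± 0.18, edgeR adjusted p = 8.28e-05 and 6.81e-07). The log2 values without those 2 libraries were 4.43 with PBS and 3.76 with liraglutide. In contrast to Adamts15, PBS infarct was above remote, by 1.36 ± 0.25 (edgeR adjusted p = 0.000363). With liraglutide that difference was 0.75 ± 0.26, with overlapping groups (edgeR adjusted p = 0.0267), and was lost without infarct replicate 2 or 3 (adjusted p = 0.0976 and 0.107), without remote replicate 1 or 3 (0.0626 and 0.0935) and with DESeq2 (0.0572) or all 18 libraries (0.0896). Both neighbours were thus highest in atria but on opposite sides of remote in infarct.

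Adamts5, aggrecanase-2, was low in atria. It had 5.35, 7.91 and 2.87 CPM in PBS atria, 39.9, 43.1 and 39.5 CPM in infarct and 25.1, 20.3 and 19.8 CPM in remote. With liraglutide it had 3.61, 3.88 and 11.3 CPM in atria, 38.3, 38.0 and 52.7 CPM in infarct and 25.9, 20.3 and 17.8 CPM in remote. The regions did not overlap, and PBS atria were 4.16-fold below remote and 7.22-fold below infarct (log2 -2.06 ± 0.25 and -2.85 ± 0.22, edgeR adjusted p = 0.000113 and 3.54e-06). In liraglutide atria the value of 11.3 CPM was in replicate 3, the library with the most ventricular markers. Without it the difference from remote was -2.43 in place of -1.76, and that from infarct -3.37 in place of -2.701. Infarct exceeded remote by 0.85 ± 0.11 and 0.98 ± 0.14 (edgeR adjusted p = 1.36e-05 and 8.75e-05). Adamts1 lies 53.1 kb from Adamts5 on chromosome 16, on the same strand.

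Adamts1, an inflammation-inducible versicanase, was by CPM the most abundant protease of the set. It measured 590.0, 521 and 664 CPM in PBS atria, 997, 914 and 1019.5 CPM in infarct and 320.4, 221 and 576 CPM in remote. The liraglutide libraries gave 952, 779 and 749 CPM in atria, 824, 1011 and 1028 CPM in infarct and 219, 357 and 299.9 CPM in remote. PBS remote replicate 3 stood at 576 CPM, and infarct against remote did not pass with PBS (1.32 ± 0.44, edgeR adjusted p = 0.0729) although the groups did not overlap. It passed with liraglutide (1.69 ± 0.18, edgeR adjusted p = 6.41e-05). Atria were above remote with liraglutide (1.51 ± 0.21, edgeR adjusted p = 0.000448, and 1.65 without replicate 3) and overlapped with it with PBS (0.53 ± 0.42).

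Adamts9, a versicanase that is also kept at the cell surface, measured 226, 226 and 208 CPM in PBS infarct, 71.3, 91.8 and 99.4 CPM in remote and 84.6, 112 and 83.2 CPM in atria. The liraglutide values were 173, 208 and 243 CPM, 63.0, 70.8 and 65.6 CPM and 69.0, 71.1 and 63.8 CPM. Infarct was 2.43-fold and 3.08-fold above remote (log2 1.28 ± 0.12 and 1.62 ± 0.11, edgeR adjusted p = 1.16e-05 and 5.19e-08), and atria did not differ from remote past the threshold (-0.03 and 0.04). Adamts20 had 0 to 1.39 CPM and passed neither of the 2 group comparisons in which it was tested. Of the 7 genes with this activity, 4 were higher and 1 lower in PBS infarct, where 25.7% and 21.7% of all genes were. With liraglutide 5 of 6 tested were higher and 1 lower, beside 27.3% and 22.4% of all genes.

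**Figure D4:**
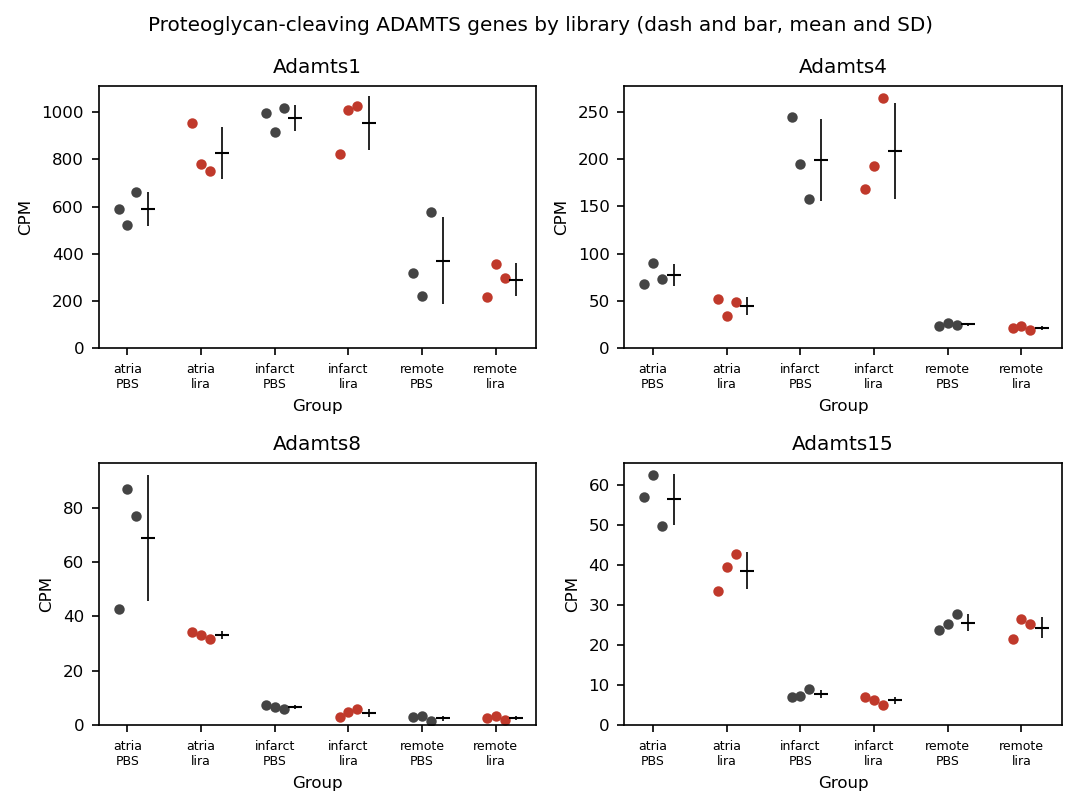
CPM (linear axes from 0) of Adamts1, Adamts4, Adamts8 and Adamts15 in each library of the 6 groups, grey for PBS and red for liraglutide, with the mean and SD of 3 libraries beside the points. Adamts4 peaks in infarct, Adamts8 in atria, and Adamts15 is lowest in infarct at 5.11 to 8.88 CPM.

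The 3 procollagen N-propeptidases, which remove the amino-terminal extension of fibrillar procollagens, had 3 different region profiles. Adamts2 was higher in infarct, at 47.5 ± 6.68 CPM against 21.97 ± 5.01 CPM in remote with PBS (mean ± SD, n = 3; log2 1.06 ± 0.14, edgeR adjusted p = 4.64e-05). Adamts3, which also processes the lymphatic growth factor VEGF-C, had 16.5, 13.6 and 15.0 CPM in PBS atria, 3.79, 3.71 and 3.27 CPM in infarct and 4.995, 4.61 and 4.08 CPM in remote. With liraglutide it had 14.1, 15.2 and 16.5, 3.41, 4.02 and 4.38 and 4.40, 5.86 and 3.42 CPM. Atria exceeded remote 2.98-fold and 3.31-fold and infarct 4.02-fold and 4.05-fold (edgeR adjusted p = 1.37e-05, 6.67e-05, 2.16e-06 and 1.09e-05). The log2 difference from remote without the 2 atrial libraries that stood apart was 1.67 and 1.74. Adamts14 was lowest in atria, with 2.68, 2.39 and 2.24 CPM against 4.58, 5.11 and 5.61 CPM in infarct and 4.70, 4.89 and 3.24 CPM in remote with PBS, and 3.03, 1.61 and 2.6998, 4.42, 5.63 and 4.02 and 3.64, 5.29 and 3.92 CPM with liraglutide. PBS atria differed from remote by -0.94 ± 0.24 (edgeR adjusted p = 0.00602), and by -0.89 without replicate 2. The liraglutide difference of -0.82 ± 0.28 (edgeR adjusted p = 0.0332) was lost without atria replicate 2 (adjusted p = 0.0926), remote replicate 2 (0.145) or remote replicate 3 (0.0649). It was also lost in edgeR with the replicate number as a block (adjusted p = 0.0623).

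Among the other ADAMTS genes, Adamts10, which binds fibrillin, was higher in infarct and Adamts19 in atria. Adamts10 had 71.2, 74.4 and 65.9 CPM in PBS infarct, 21.5, 28.7 and 23.1 CPM in remote and 38.8, 32.4 and 28.9 CPM in atria, and 65.2, 58.4 and 87.3, 25.03, 24.0 and 32.6 and 34.9, 30.4 and 40.3 CPM with liraglutide. The infarct against remote difference was 1.49 ± 0.10 and 1.34 ± 0.15 (edgeR adjusted p = 3.92e-08 and 3.83e-05). Adamts19 had 14.4, 10.7 and 10.5 CPM in PBS atria, 1.30, 0.835 and 0.701 CPM in infarct and 1.35, 0.376 and 0.719 CPM in remote, and 13.1, 11.2 and 9.38, 0.922, 0.894 and 0.852 and 0.986, 0.637 and 0.417 CPM with liraglutide. Every atrial library lay at or above 9.38 CPM and every ventricular one at or below 1.35 CPM, and atria exceeded remote by 3.61 ± 0.33 and 4.03 ± 0.31 on the log2 scale (edgeR adjusted p = 6.91e-06 and 8.40e-06). Without remote PBS replicate 1 the PBS value was 4.33, and without the 2 atrial libraries that stood apart the values were 3.71 and 4.22.

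Adamts12 and Adamts7, which cut cartilage oligomeric matrix protein, moved apart in infarct. Adamts12 had 5.08, 4.27 and 5.37 CPM in PBS infarct, 2.64, 3.20 and 2.64 CPM in remote and 1.65, 1.75 and 0 CPM in atria, where 0 counts allow up to 0.479 CPM. With liraglutide it had 5.90, 5.28 and 4.75, 2.96, 2.68 and 1.08 and 1.59, 1.67 and 2.43 CPM. Infarct was higher by 0.73 ± 0.22 and 1.21 ± 0.27 (edgeR adjusted p = 0.0141 and 0.00183), the PBS call being lost without infarct or remote replicate 1 (adjusted p = 0.0605 and 0.0564) and with DESeq2 (0.0694) or all 18 libraries (0.144). Atria differed from infarct by -1.89 ± 0.49 and -1.42 ± 0.23 (edgeR adjusted p = 0.00916 and 0.000824). Adamts7 had 18.9, 19.5 and 24.5 CPM in PBS infarct, 27.0, 33.5 and 22.5 CPM in remote and 23.1, 14.2 and 16.1 CPM in atria, and 16.1, 17.0 and 19.2, 26.8, 23.5 and 36.5 and 14.5, 18.1 and 25.9 CPM with liraglutide. Infarct differed from remote by -0.48 ± 0.13 and -0.75 ± 0.16 (edgeR adjusted p = 0.00718 and 0.00152; the first was 0.0727 in a fit of all 18 libraries), and atria from remote by -0.76 and -0.58 (edgeR adjusted p = 0.00929 and 0.0412). The liraglutide atrial call was lost without atria replicate 1 or 2 or remote replicate 1 or 3 (adjusted p = 0.104, 0.0893, 0.0649 and 0.142). Without the 2 atrial libraries that stood apart the atrial values were -0.57 and -0.74.

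Adamts6 passed in none of the region comparisons, at 2.02 to 5.87 CPM. Adamts17 was higher in atria than in remote, at 2.76, 2.49 and 2.24 CPM against 1.59, 0.658 and 0.240 CPM with PBS (log2 1.29 ± 0.44, edgeR adjusted p = 0.0289). That value was 2.26 without remote PBS replicate 1 and 1.32 without atria PBS replicate 2, and the call was lost without atria replicate 1 (adjusted p = 0.0693), remote replicate 2 (0.105) or remote replicate 3 (0.0653).

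The ADAMTS-like genes, whose products sit in fibrillin microfibrils or bind other matrix proteins, again divided by region. Adamtsl3 had 14.3, 13.1 and 12.1 CPM in PBS infarct, 4.94, 4.51 and 5.51 CPM in remote and 4.64, 3.29 and 1.60 CPM in atria, and 14.4, 12.4 and 15.0, 5.16, 5.16 and 5.59 and 2.60, 3.75 and 4.53 CPM with liraglutide. Infarct exceeded remote by 1.37 ± 0.16 and 1.37 ± 0.14 (edgeR adjusted p = 8.17e-06 and 1.61e-06) and atria by 4.03-fold and 3.66-fold. Adamtsl2 was also higher in infarct, at 56.7, 74.7 and 65.6 CPM against 21.98, 34.8 and 24.3 CPM in remote with PBS and 46.5, 48.8 and 53.0 against 21.6, 25.7 and 30.7 CPM with liraglutide. Atria held 20.9 to 34.5 CPM of it. The difference from remote was 1.24 ± 0.16 and 0.90 ± 0.12 (edgeR adjusted p = 0.000158 and 1.98e-05).

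Adamtsl5 ran the other way, at 146, 168 and 164 CPM in PBS remote, 99.0, 109 and 106 CPM in infarct and 107, 89.8 and 101 CPM in atria. With liraglutide it measured 133, 141 and 166, 88.2, 97.1 and 87.1 and 96.2, 85.5 and 90.8 CPM. Every remote library lay above every library of the other regions, and infarct differed from remote by log2 fold changes of -0.66 ± 0.082 and -0.71 ± 0.10 (edgeR adjusted p = 1.14e-05 and 3.51e-05). Adamtsl4 was higher in atria, at 155 to 172 CPM against 60.2 to 82.0 CPM in the ventricle, and infarct and remote overlapped. Adamtsl4 exceeded remote without the 2 atrial libraries that stood apart by 1.10 and 1.30. Adamtsl1 was higher in atria than in remote (1.49 ± 0.23 with PBS, edgeR adjusted p = 0.000274), and by 1.35 without atria PBS replicate 2. Its infarct against remote difference was 0.21 ± 0.27 with PBS and 1.06 ± 0.23 with liraglutide, and only the second passed (edgeR adjusted p = 0.00126). The contrast between these was 0.86 ± 0.31 (edgeR adjusted p = 1).

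**Figure D5:**
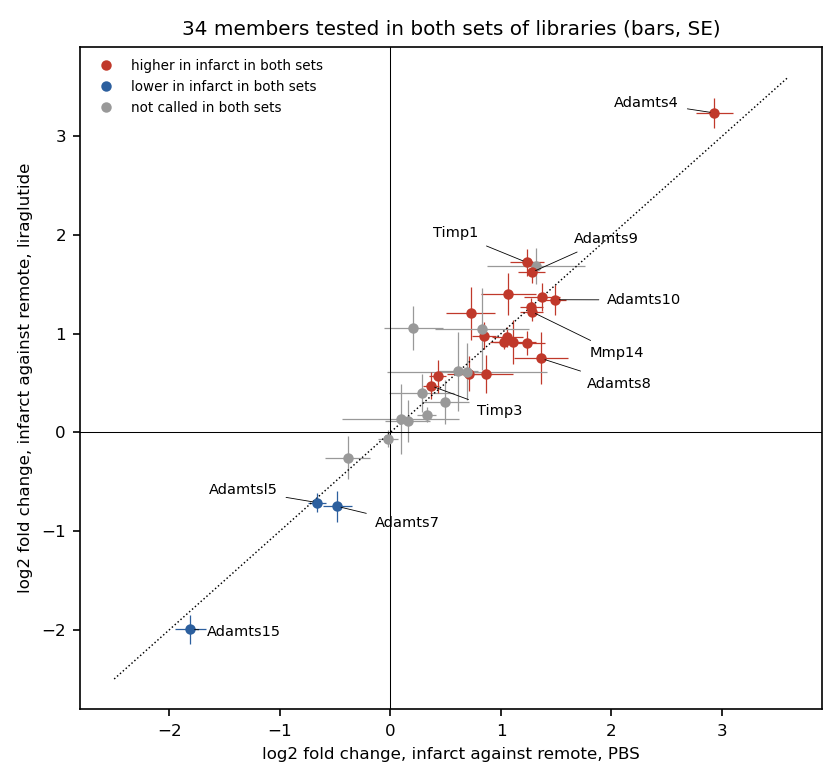
Log2 fold change of infarct against remote with PBS (horizontal) and with liraglutide (vertical) for the 34 genes tested in both, bars showing the SE, the dotted line equal values, and red and blue the genes called higher or lower with both treatments. Adamts4 lies farthest out at 2.93 and 3.24, and Adamts15 at -1.81 and -1.998.

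Summed per exon length over families, MMP transcripts measured 89.4 ± 3.45 CPM per kb in PBS infarct, 47.0 ± 5.202 in remote and 89.1 ± 16.2 in atria (mean ± SD, n = 3). ADAMTS transcripts measured 266 ± 11.95, 98.7 ± 33.2 and 170.1 ± 9.60 in the same order, with Adamts1 the largest single part. ADAMTS-like transcripts measured 49.7 ± 2.06, 55.0 ± 4.62 and 64.3 ± 4.10. The MMP, ADAMTS and TIMP sums of the infarct libraries thus lay above those of the remote libraries, and within each treatment the ADAMTS-like sums of the infarct libraries lay below.

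No member passed the edgeR threshold between liraglutide and PBS in any region. In atria 0 of 36 tested members passed, where 0.00739% of all 13530 genes, a single gene, passed. In infarct 0 of 36 and in remote 0 of 35 passed, with 0% of all genes in each. At an unadjusted p under 0.05 there were 5 members in atria (6.87% of all genes), 6 in infarct (5.24%) and 2 in remote (4.34%), and groups did not overlap for 5 (14.9% of all genes), 7 (9.69%) and 2 (8.96%). DESeq2 called 2 members in atria and none in the other regions. Its share of all genes is not given here, so these calls say nothing about the members as a set. The median log2 fold change of the members was -0.02 in atria, 0.02 in infarct and -0.02 in remote.

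The 4 members with the smallest p in atria were all proteoglycan-cleaving ADAMTS genes. For each the 3 liraglutide atria lay on the same side of the 3 PBS atria, which picking by p in this same comparison favours. Of all 36 tested members 5 had groups that did not overlap (13.9%), beside 14.9% of all genes. Adamts4 differed by -0.69 ± 0.16 (edgeR adjusted p = 0.408, DESeq2 adjusted p = 0.0279), and Adamts8 by -0.95 ± 0.25 (edgeR adjusted p = 0.487, DESeq2 adjusted p = 0.0116). Adamts15, the neighbour of Adamts8, differed by -0.45 ± 0.11 (edgeR adjusted p = 0.421), and Adamts1 by 0.59 ± 0.17, in the other direction (edgeR adjusted p = 0.512). Without the 2 atrial libraries with markers of other tissue the values were -0.58 for Adamts4, -0.67 for Adamts8, -0.41 for Adamts15 and 0.61 for Adamts1, with edgeR adjusted p from 0.115 (Adamts1) to 0.512 (Adamts8). Neutrophil and macrophage marker sums were also lower in 2 of the 3 liraglutide atria than in any PBS atrium, and their part in these differences was not tested.

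In infarct the 4 smallest p belonged to Adamtsl2 (-0.40 ± 0.098, edgeR adjusted p = 0.482), Mmp3 (0.53 ± 0.18), Adamtsl1 (0.60 ± 0.22) and Timp1 (0.36 ± 0.14). Adamtsl1 measured 4.33, 4.29 and 4.51 CPM with liraglutide and 2.99, 2.97 and 2.57 CPM with PBS, in groups that did not overlap, and 1.67 to 2.94 CPM in remote and 5.09 to 8.76 CPM in atria. In remote they belonged to Adamts9 (-0.41 ± 0.13), Adamts4 (-0.25 ± 0.10), Mmp17 (0.39 ± 0.23) and Adamtsl5 (-0.14 ± 0.098), each with an edgeR adjusted p of 0.999. Adamts9 and Adamts4 were lower in all 3 liraglutide remote libraries than in any PBS one. Without the filter on low counts Adamtsl2 passed in infarct (-0.39, edgeR adjusted p = 0.0338).

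The liraglutide effect did not differ between regions past the threshold for any of 39 tested members, as for all 13920 genes (0%). At an unadjusted p under 0.05, 1 member stood in the contrast of infarct with remote, Adamtsl1 (1.25% of all genes), and 3 in that of atria with remote, Adamts1 (0.99 ± 0.43), Adamts8 (-0.95 ± 0.42) and Adamts15 (-0.36 ± 0.17), where 5.39% of all genes did. DESeq2 called 0 members in both contrasts.

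Other proteolytic and matrix lists were counted in the same comparison, where 25.7% of all genes were higher and 21.7% lower with PBS. In PBS hearts 5 of 6 tested plasminogen system genes were higher and 0 lower, among them the receptor gene Plaur (2.18 ± 0.17, edgeR adjusted p = 7.85e-06), the activators Plau (1.57) and Plat (1.41) and the inhibitor Serpine2 (0.88). Of the procollagen processing partners 5 of 5 were higher, of the ADAM proteases 7 of 10, and of the cathepsins with their inhibitors 7 of 8, with 1 lower. Of the genes for activation, binding and clearance of MMPs 8 of 12 were higher and 3 lower. Substrate genes were higher in 15 of 17 cases, including fibrillin-1 (Fbn1, 1.55) and elastin (Eln, 1.29). With liraglutide, beside 27.3% and 22.4% of all genes, 5 of 6 plasminogen system genes, 5 of 5 procollagen partners, 7 of 10 ADAM proteases (1 lower), 6 of 8 cathepsins and inhibitors, 8 of 12 activation genes and 15 of 17 substrates were higher. The PBS medians of these 6 lists ran from 0.45 to 1.24, beside -0.02 for all genes.

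Markers of several cell types moved with the infarct results. Fibroblast markers summed to 3946 to 4913 CPM in infarct and 1525 to 1872 CPM in remote. With PBS 9 of 9 were higher in infarct, with a median of 1.37, where 25.7% of all genes were higher. Endothelial markers summed to 1863 to 2311 and 1017 to 1064 CPM, with 8 of 8 higher and a median of 1.08. Smooth muscle and pericyte markers summed to 2406 to 2979 and 1295 to 1554 CPM, and monocyte and macrophage markers to 377 to 496 and 189 to 245 CPM, with 5 of 9 and 7 of 9 higher. These lists had no marker at 0 in infarct or remote. With PBS the members' median of 0.78 lay below those of the fibroblast, endothelial, smooth muscle (0.89) and macrophage (0.84) lists. With liraglutide the members' 0.83 lay below the fibroblast (1.24) and endothelial (1.06) medians and above the smooth muscle (0.80) and macrophage (0.82) ones. The part of these cell types in the members' differences was not tested.

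In the atria the epicardial and mesothelial markers summed to 141 to 277 CPM, against 13.8 to 16.9 CPM in remote, and smooth muscle and pericyte markers to 397 to 675 CPM, below remote. Fibroblast markers summed to 2336 to 4432 CPM in the atria and 1525 to 1872 CPM in remote, with 4 of 9 higher with each treatment. Of 9 tested monocyte and macrophage markers, 9 were higher than in remote in PBS atria and 3 in liraglutide atria. Of all genes 26.3% and 24.6% were higher. The part of these cell types in the atrial differences of Timp1, Adamts8, Adamts19, Timp4 and Adamts5 was not tested.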

How the data were processed

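Raw counts per gene symbol for 18 libraries were deposited by the authors. The submitters' processing notes list build mm10 with the tools STAR 2.7.9a and DESeq2. How reads were counted, with which strand setting and annotation, is not given in the sources used here, so reads of genes that overlap on opposite strands cannot be told apart. Each comparison was fitted in edgeR 4.0.16 (R 4.3.3) on its own 6 libraries, with filterByExpr, TMM factors, a robust quasi-likelihood test and p-values adjusted by Benjamini-Hochberg across every gene tested. Contrasts of liraglutide effects used all 18 libraries. SEs were derived from the fold change and the F statistic. Printed CPM use the library total and not the TMM factors. Exon lengths and coordinates are from the mm10 annotation, promoters from RefSeq. No pair of replicates agreed within sampling noise. The column labels use the same numbers in the 3 regions. Same-numbered libraries deviated together in infarct against remote with PBS (r = 0.135, 0.106 and 0.139) and with liraglutide (0.112, 0.076 and 0.104). They also did so in atria against remote with PBS (0.126, 0.084 and 0.140). In the remaining region comparisons r of same-numbered libraries ran from -0.035 to 0.111. Differently numbered libraries gave -0.137 to 0.028 in infarct against remote and in atria against remote with PBS. Between liraglutide and PBS libraries of a region, at any numbers, r ran from -0.331 to 0.313. The same-numbered values are thus only a hint from the data and not a stated pairing, and the main tests are unpaired. Genes were named by a rule: the inhibitors, Mmp2, Mmp9, Mmp14, Adamts15, the largest changes called with both treatments, and the smallest p for liraglutide. Alternatives were RLE factors, no filter, DESeq2 1.42.0, all 18 libraries, a replicate block, each library left out, and 2 atrial libraries left out. Members and lists were chosen with earlier results of these data known.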

Additional observations from a re-analysis of the deposited data

How the results depend on the processing

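No direction reversed among the members called between regions, or the 4 members with the smallest p in each liraglutide comparison and contrast, under the alternatives run on them. Uncalled members were not followed singly. Counts under the alternatives are of members alone and are given without the share of all genes. A change in these counts may only follow how many genes a setting called, so they say nothing about the members as a set. Counts of called members stayed within 1.5 times the main count in the 6 region comparisons: leaving out 1 library at a time gave 22 to 29 (infarct against remote, PBS) and 23 to 25 (liraglutide), 18 to 23 and 18 to 25 (atria against remote), and 23 to 31 and 18 to 22 (atria against infarct). For liraglutide against PBS the count was 0 in each such fit, but DESeq2 gave 2 in atria (Adamts4 and Adamts8), and no filter on low counts gave 1 in infarct (Adamtsl2). The cause was not tested. With the replicate block the counts were 26 and 29 (infarct against remote, PBS and liraglutide), 25 and 20 (atria against remote), 26 and 20 (atria against infarct) and 0 in the liraglutide comparisons and contrasts. Under the block the Adamts14 calls in liraglutide atria were lost, at an edgeR adjusted p of 0.0623 against remote and 0.0553 against infarct. Same-numbered libraries correlated there at r of 0.021, -0.035 and -0.031 against remote and -0.011, 0.035 and 0.044 against infarct. Whether they came from the same hearts is not stated. Without the 2 atrial libraries with markers of other tissue the counts of called members were 22 and 25 (atria against remote) and 26 and 22 (atria against infarct). Scaling by library total moved the median of all genes to 0.13 from 0.01 in atria against remote with PBS. Mmp24, Mmp25 and Mmp27 were too sparse to test in any comparison, and at 4280459 counts the smallest library limits what can be seen of the rare transcripts.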
